A study of Homo sapiens with 6 samples.

Results

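A375 cells, an established human melanoma line, were compared after 48 h in 25 µM A771726 or in the solvent DMSO, with engaged RNA polymerase measured along genes by GRO-seq. Every gene in the deposited table entered the comparison: 22442 transcript rows, reduced to 12438 gene symbols by keeping for each symbol the row with the highest mean gene body density. Of these symbols, 10722 carried a protein-coding RefSeq identifier and 1716 a non-coding one. The comparison used 4 of the study's 6 samples, 2 in DMSO and 2 in A771726. The other 2 were treated with 25 µM leflunomide for 48 h. They entered the choice of row per symbol, the filters on low values and the pseudocounts, the small constants added before taking logs. Beyond that they served only to estimate the spread between libraries and for values set side by side. All 3 groups are of 1 cell line and differ, per the labels, only in the agent. The labels do not say whether the replicates came from separate cultures, so the p-values below measure the spread between these samples, which may be technical.

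A771726, also called teriflunomide, is the active metabolite of leflunomide and inhibits DHODH, the mitochondrial enzyme that oxidises dihydroorotate to orotate in the synthesis of pyrimidines from small precursors. Cells that cannot make enough pyrimidines run short of UTP and CTP, which RNA polymerases need as substrates. HEXIM1, named in the study's title, binds 7SK RNA and holds the elongation kinase P-TEFb inactive. GRO-seq lets polymerases that were already engaged extend their transcripts in isolated nuclei, so that the density of reads over the promoter and over the gene body reports where polymerase sat. The traveling ratio is the promoter density divided by the gene body density, and a high ratio means that more of the polymerase on a gene lay near its start.

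The deposited densities and ratios are the authors' means over the 2 libraries of a group. For most genes the values of the single libraries could be worked back from the mean promoter density, the mean gene body density and the mean ratio, and 5639 genes had a gene body value for each of the 4 libraries. Libraries recovered in this way could not be matched to the replicate letters of the labels. In the promoter window 1 read was worth a density of 0.0438 and 0.0520 in the DMSO libraries and of 0.0241 and 0.0313 in the A771726 libraries. In each group library 1 is the one in which a promoter read is worth less. Promoter values rest on few reads: among genes past the promoter filter the median gene had 2 and 1 reads in DMSO, and 3 and 2 reads in A771726. Of 11 melanocyte markers, 6 were in the table and 5 passed the gene body filter; SOX10, the transcription factor of that lineage, had a gene body density of 0.329 in DMSO and 0.273 in A771726. Of 5 keratinocyte markers 2 were in the table, with a summed density of 0.0222 and 0.00465, and of 5 fibroblast markers 2 were in the table, with 0.00635 and 0.0048. Only 1 of 5 leukocyte markers was in the table, CD68, at 0.232 and 0.186.

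Gene body density was lower in A771726 than in DMSO for most genes. Among the 8706 genes past the filter on low values, 85.5% had a lower density in A771726, and the median log2 difference was -0.52. Over the 3479 genes recovered in all 6 libraries, the DMSO libraries had median gene body densities of 0.0399 and 0.0345, and those of the A771726 libraries were 0.0274 and 0.0224. Both A771726 medians lay below both DMSO medians, but with 2 against 2 the exact two-sided permutation p was 0.333, the smallest that this design allows. At the deposited scale, both A771726 libraries lay below both DMSO libraries for 2913 of 5303 genes (54.9%) and above them for 115 (2.17%). The table also treats the groups unevenly: of 12438 genes, 0 gene bodies were at 0 in DMSO and 163 in A771726, and no DMSO traveling ratio was above 7.5. How the authors scaled the densities and chose the rows is not given in the sources used here, so a true lowering of polymerase on most genes, a difference in scaling and a choice of rows on the DMSO values cannot be told apart. Gene values are therefore given relative to the median gene below, as log2 differences from which the shift of -0.52 has been taken out, unless the deposited scale is named. In nuclei taken in bulk, fewer cells that transcribe a gene and less transcription in each cell cannot be told apart.

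**Figure D1:**
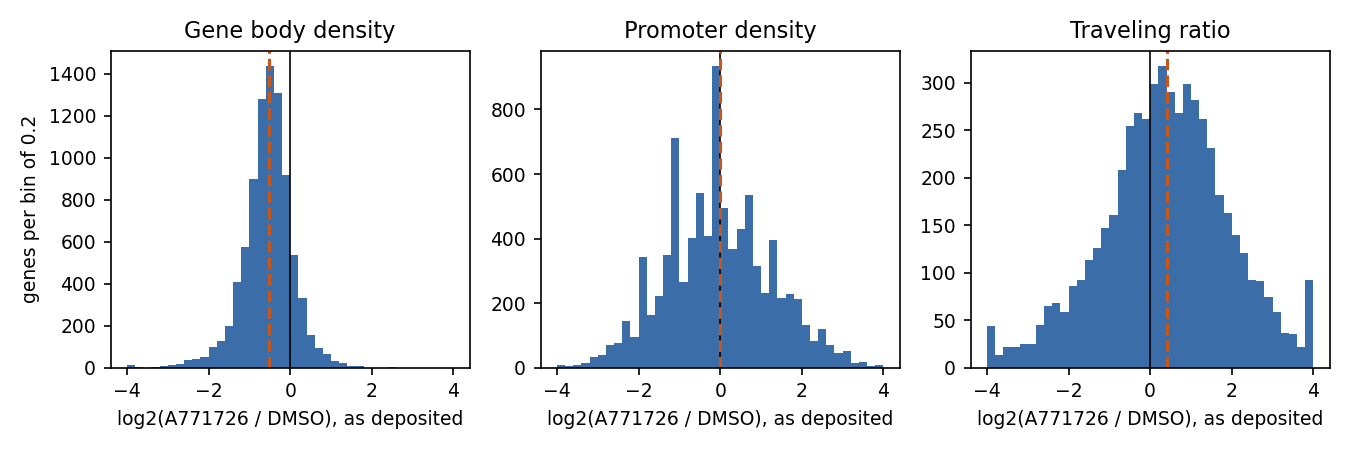
Distribution over genes of the log2 difference between A771726 and DMSO in gene body density, promoter density and traveling ratio, at the deposited scale; the y axis counts genes, the dashed line marks the median, and values beyond 4 in either direction are in the end bins. The gene body histogram is narrow and centred at -0.52, whereas the promoter histogram is wide with its median at 0.00.

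Relative to the median gene, 313 gene bodies (3.6%) were higher in A771726 by 2-fold or more and 499 (5.73%) lower by 2-fold or more. At the deposited scale the same counts were 73 (0.839%) and 1610 (18.5%). After the median shift, both A771726 libraries lay above both DMSO libraries for 743 of 5303 genes (14%) and below them for 1057 (19.9%), and the counts for gene groups below are to be read against these shares. No single gene body passed limma's test over the recovered libraries with Benjamini-Hochberg adjustment. With libraries centred on their medians, 0 of 3479 genes had an adjusted p under 0.05 and 280 (8.05%) an unadjusted p under 0.05; the smallest adjusted p was 0.544. With densities as deposited, 0 genes passed, 755 (21.7%) had an unadjusted p under 0.05 and the smallest adjusted p was 0.148. On simulated libraries of this size, the same test called 6.06% of genes with a log2 change of 1 and 49.3% of those with a change of 2. Differences in gene body density are therefore given below as values.

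DHODH (NM_001361), the enzyme that the agent inhibits, had gene body densities of 0.0136 and 0.0113 in DMSO and of 0.0246 and 0.0087 in A771726. The groups overlapped, and the log2 difference of their means was 0.88 relative to the median gene and 0.36 at the deposited scale, with limma's adjusted p of 0.643. At the DHODH promoter there were 1 and 1 reads in the DMSO libraries and 4 and 5 in the A771726 libraries. A read was worth more density in DMSO, so these counts are not on the same scale. In density the log2 difference was 1.14, and 0.66 with a pseudocount 5 times larger. HEXIM1 (NM_006460) had gene body densities of 0.260 and 0.206 in DMSO and of 0.185 and 0.183 in A771726. Its direction turned on the scaling: both A771726 libraries lay below both DMSO libraries as deposited, with a log2 difference of -0.33, and above them after the median shift, with 0.18, and limma's adjusted p was 0.838. The HEXIM1 promoter density was 0.263 and 0.312 in DMSO and 0.236 and 0.0313 in A771726, so that both treated libraries lay below both controls. Of the 11 genes past the filter in a list of HEXIM1, 7SK and P-TEFb components, 7 were above the median gene and 4 below, and the list's median was 0.16. The largest difference in that list was in RDBP, the E subunit of the negative elongation factor NELF, at -1.18, with 0.0658 and 0.0257 in DMSO and 0.0213 and 0.0039 in A771726. CCNT1, which encodes the cyclin T1 subunit of P-TEFb, was at 0.0540 and 0.0455 in DMSO and 0.0292 and 0.0253 in A771726, a relative difference of -0.30.

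Genes of pyrimidine nucleotide synthesis lay on both sides of the median gene. Of 12 past the filter, 9 lay above the median gene and 3 below, the list median was 0.28, and at the deposited scale that median was -0.24. Over the 10 genes recovered in all libraries it was 0.23, and 0.07 without A771726 library 2. The 3 below were UMPS, NME2 and TYMS. UMPS, which turns the orotate made by DHODH into UMP, had densities of 0.0510 and 0.0808 in DMSO and of 0.0287 and 0.0195 in A771726, a relative log2 difference of -0.85 (limma adjusted p 0.642). NME2, a kinase that makes nucleoside triphosphates, was at 0.0933 and 0.128 in DMSO and at 0.0449 and 0.0250 in A771726, a difference of -1.09. TYMS, which makes the thymidine nucleotide dTMP, was at 0.0662 and 0.0772 in DMSO and at 0.0416 and 0.0283 in A771726, a difference of -0.47. For these 3 genes both treated libraries lay below both controls, also after the median shift. They were 3 of 12 genes with recovered libraries, and for 2 of the 12 both treated libraries lay above both controls after the shift. Over all genes the shares below and above were 19.9% and 14%. CAD, which carries out the steps before DHODH, differed by 0.07 from the median gene, and DCTD, a deaminase of deoxycytidylate, by 0.62.

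The genes that host small nucleolar RNAs in their introns had the lowest median among the 59 lists looked at, 1 of which had no gene past the filter. All 13 past the filter were below the median gene, their median was -0.71, and for 7 of the 10 with recovered libraries both treated libraries lay below both controls after the shift, against 19.9% of all genes. SNHG5, a host of box C/D RNAs, had the largest difference: 0.788 and 0.761 in DMSO and 0.259 and 0.138 in A771726, which is 2.71-fold lower relative to the median gene. In limma's centred fit its log2 difference was -1.48 with an SE of 0.29, an unadjusted p of 0.0017 and an adjusted p of 0.544. SNHG8 was at 0.616 and 0.747 in DMSO and at 0.215 and 0.243 in A771726, a relative difference of -1.04. SNHG3 was at 0.462 and 0.609 in DMSO and at 0.171 and 0.257 in A771726, a difference of -0.79, and SNHG12 differed by -0.70. GAS5, whose deposited mean was 1.41 in DMSO and 0.568 in A771726, differed by -0.79. These are among the most densely transcribed genes of the table, and for SNHG5, SNHG8 and SNHG3 each control library was above every treated one. SNHG5, SNHG8 and SNHG3 were picked for the size of their differences, which favours this separation. Promoters of the host genes lay in the same direction, with a median log2 difference of -1.17, and 9 were lower and 0 higher by 2-fold or more, where 26% of all promoters were lower and 20.8% higher by as much. With any 1 of the 4 libraries left out, the body median over the 6 hosts recovered in all libraries stayed between -0.95 and -0.76.

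Ribosomal protein genes showed a smaller and broader difference. Of 74 cytosolic ribosomal protein genes past the filter, 67 lay below the median gene, the list median was -0.41, and for 34 of 70 both treated libraries lay below both controls after the shift. Only 3 were at least 2-fold lower. RPL19, a protein of the large subunit, was at 0.195 and 0.297 in DMSO and at 0.0970 and 0.0552 in A771726, a difference of -1.14. RPL15 was at 0.224 and 0.185 in DMSO and at 0.0948 and 0.0323 in A771726, a difference of -1.13. RPL36A was at 0.186 and 0.212 in DMSO and at 0.0816 and 0.0464 in A771726, a difference of -1.08. For these 3 genes every control library was above every treated one, also after the shift. They were picked for the size of their differences, so this separation is no further support. The 53 mitochondrial ribosomal protein genes had a median of -0.09, with 21 above and 32 below. At the promoters of the cytosolic genes, 22 of 75 were lower and 1 higher by 2-fold or more, against 26% and 20.8% of all promoters, and the median was -0.63.

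Ribosomal protein genes and several snoRNA hosts are known for transcripts that start with a C followed by a run of pyrimidines, the 5′ terminal oligopyrimidine tract. It is shown here because these are among the groups whose gene bodies lay lowest. The windows below run from 30 bases before the annotated start to the first 20 transcribed bases, 5′ to 3′ on the gene's strand, with the tract in capitals. Sequences are from RefSeq on GRCh38.p14.
SNHG5, chr6:85678714-85678763, minus strand: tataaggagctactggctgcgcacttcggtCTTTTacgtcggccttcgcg
SNHG12, chr1:28581854-28581903, minus strand: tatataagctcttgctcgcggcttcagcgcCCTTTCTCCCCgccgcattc
SNHG4, chr5:139274071-139274120, plus strand: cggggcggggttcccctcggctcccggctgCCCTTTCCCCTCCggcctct
RPL14, chr3:40457309-40457358, plus strand: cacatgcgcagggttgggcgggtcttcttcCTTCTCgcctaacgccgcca
RPS9, chr19:54200828-54200877, plus strand: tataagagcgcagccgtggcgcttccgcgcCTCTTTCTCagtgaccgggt
RPS18, chr6:33272045-33272094, plus strand: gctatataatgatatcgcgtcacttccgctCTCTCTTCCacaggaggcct

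The search, on the transcribed strand only, asked for a C at the annotated start followed by at least 4 letters that were each C or T, in genes with 1 annotated start. It matched 36 of 48 ribosomal protein genes (75%) and 3 of 11 snoRNA hosts (27.3%), against 6.07% of all 4497 genes searched. Within the ribosomal protein genes the median relative difference was -0.27 with the tract and -0.40 without it. In 17 genes of translation initiation and elongation it was -0.23 with the tract and 0.00 without, and over all genes searched -0.11 and -0.01. The direction was thus not the same in these lists, and the differences were not tested.

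Histone genes were the second large group with low gene bodies. Of 58 replication-dependent histone genes past the filter, 49 lay below the median gene and 9 above, 18 were lower and 1 higher by 2-fold or more, and the list median was -0.58. For 25 of 46 genes both treated libraries lay below both controls after the shift, and for 0 of 46 both lay above. HIST1H2BM (now H2BC14) was at 0.142 and 0.0992 in DMSO and at 0.0138 and 0.0179 in A771726, 4.75-fold lower relative to the median gene. HIST1H2BF had a deposited mean of 0.0588 in DMSO and 0.0046 in A771726, a relative difference of -2.65 and the lowest among protein-coding genes of at least median density. Its DMSO libraries were far apart, at 0.0199 and 0.0976. HIST1H2BH (now H2BC9) had deposited means of 0.0932 and 0.0146, a difference of -1.99. HIST1H1A, a linker histone gene, was at 0.0294 and 0.0538 in DMSO and is listed at 0 in A771726. The exception was HIST1H3E, an H3 gene, at 2.11. Histone genes are short, with a median span of 0.4995 kb, and near-identical copies may share reads, so values of single members are uncertain.

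H2B genes are known for an octamer in their promoters that the factor OCT1 recognises. Stretches of 60 bases around it are shown because 3 of the 12 lowest protein-coding gene bodies belonged to this family. These 3 reach the floor of median density, a mean over both groups of 0.0259, only through DMSO. They were picked for their low values, so their rank is no further support. The octamer is in capitals, and the sequences are from RefSeq on GRCh38.p14.
HIST1H2BF, chr6:26199380-26199439, plus strand: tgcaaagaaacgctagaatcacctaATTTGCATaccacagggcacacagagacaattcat
HIST1H2BM, chr6:27814949-27815008, plus strand: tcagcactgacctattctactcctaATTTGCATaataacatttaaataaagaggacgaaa
HIST1H2BH, chr6:26251540-26251599, plus strand: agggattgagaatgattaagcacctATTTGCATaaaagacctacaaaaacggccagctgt

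Searched as ATTTGCAT or its reverse complement ATGCAAAT in the 250 bases before each annotated start, the octamer was found in 10 of 13 H2B genes (76.9%), in 19 of 51 histone genes (37.3%) and in 1.53% of all 4497 genes searched. Histone genes with the octamer had a median relative difference of -0.94 and those without it -0.55. Of the 19 with it 10 were H2B genes, and within the 13 H2B genes the medians were -1.14 with and -1.02 without it.

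Of the non-coding genes 13.4% were lower by 2-fold or more, and of the protein-coding genes 4.37%, with medians of -0.09 and 0.02. Of 92 box H/ACA and Cajal body RNA genes, which guide pseudouridylation, 64 lay below the median gene, 20 were lower and 0 higher by 2-fold or more, and the median was -0.45. Of 123 box C/D snoRNA genes, which guide ribose methylation, 82 lay below, with a median of -0.28. Over the 65 box C/D genes recovered in all libraries the median was -0.24, and -0.001 without DMSO library 1. Over 43 recovered H/ACA and Cajal body genes it was -0.23. These are short genes, and the share of H/ACA genes at least 2-fold lower, 21.7%, was near the 20.4% in the shortest bin by span. The lowest non-coding values of at least median density were in the miR-17-92 cluster, a set of microRNAs cut from 1 primary transcript. MIR92A1 was at 0.208 and 0.168 in DMSO and at 0.0156 and 0.0203 in A771726, 6.6-fold lower relative to the median gene. MIR19B1 was at 0.198 and 0.168 in DMSO and at 0.0155 and 0.0202 in A771726, a difference of -2.69. MIR17 was at 0.208 and 0.202 in DMSO and at 0.0467 and 0.0202 in A771726, a difference of -2.02. In all 3 the control libraries were close to each other and several times above the treated ones. MIR92A1 and MIR19B1 were picked for their low values and reach the floor of median density, 0.0259, only through DMSO. MIR18A, MIR19A and MIR20A differed by -1.95, -2.04 and -2.05, whereas the host transcript MIR17HG, which spans all 6, differed by only -0.45, from 0.166 to 0.084. The 6 entries lie within less than 1 kb of each other and their windows may count the same reads, so they are 1 observation and not 6.

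The mature arms of the cluster are shown to tell its 6 members apart, with the seed, bases 2 to 8 from the 5′ end, in capitals. Positions are on chromosome 13, plus strand, from RefSeq on GRCh38.p14.
hsa-miR-17-5p, chr13:91350618-91350640: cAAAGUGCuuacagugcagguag
hsa-miR-20a-5p, chr13:91351072-91351094: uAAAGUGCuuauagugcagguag
hsa-miR-18a-5p, chr13:91350756-91350778: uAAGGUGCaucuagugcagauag
hsa-miR-19a-3p, chr13:91350939-91350961: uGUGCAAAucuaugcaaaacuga
hsa-miR-19b-3p, chr13:91351245-91351267: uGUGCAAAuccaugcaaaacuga
hsa-miR-92a-3p, chr13:91351361-91351382: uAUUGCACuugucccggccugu
The arms miR-17-5p and miR-20a-5p share a seed, as do miR-19a-3p and miR-19b-3p. The densities are of polymerase over the hairpin genes and say nothing of the mature RNAs.

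At the other end of the non-coding genes stood the SNAR family, small NF90-associated RNAs of which the genome holds many near-identical copies. SNAR-D was at 0.189 and 0.0316 in DMSO and at 0.585 and 0.726 in A771726, 8.39-fold higher relative to the median gene. The entries SNAR-A7, SNAR-A8 and SNAR-A9 had 1 set of values, with deposited means of 0.306 in DMSO and 0.810 in A771726 and a difference of 1.92. SNORD116-21, also of a multicopy family, was at 0.0094 and 0.0335 in DMSO and at 0.0413 and 0.128 in A771726, a difference of 2.39 that ranged from 1.47 to 3.35 over recovered values with 1 library left out. It reaches the floor of median density, 0.0259, only through A771726. SNORD116-21 and the SNAR entries above were picked for their high values. In the promoter windows, SNAR-B1 and SNAR-B2 were the only genes of 3671 (0.0545%) that passed limma's test with Benjamini-Hochberg adjustment, and 151 genes (4.11%) had an unadjusted p under 0.05. Both entries held the same values, 0.438 and 0.0520 in DMSO and 2.41 and 2.85 in A771726, and so count as 1. Their promoter density rose by a log2 of 3.98 with an SE of 0.51 and an adjusted p of 1.13e-11, higher in 2 of 2 treated libraries. The control libraries lay far apart and the SE rests on a spread pooled over genes, so that small p is not a measure of the spread of these 4 values. How reads were divided among SNAR copies is not given in the sources used here, and which copies gave the reads is uncertain.

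**Figure D2:**
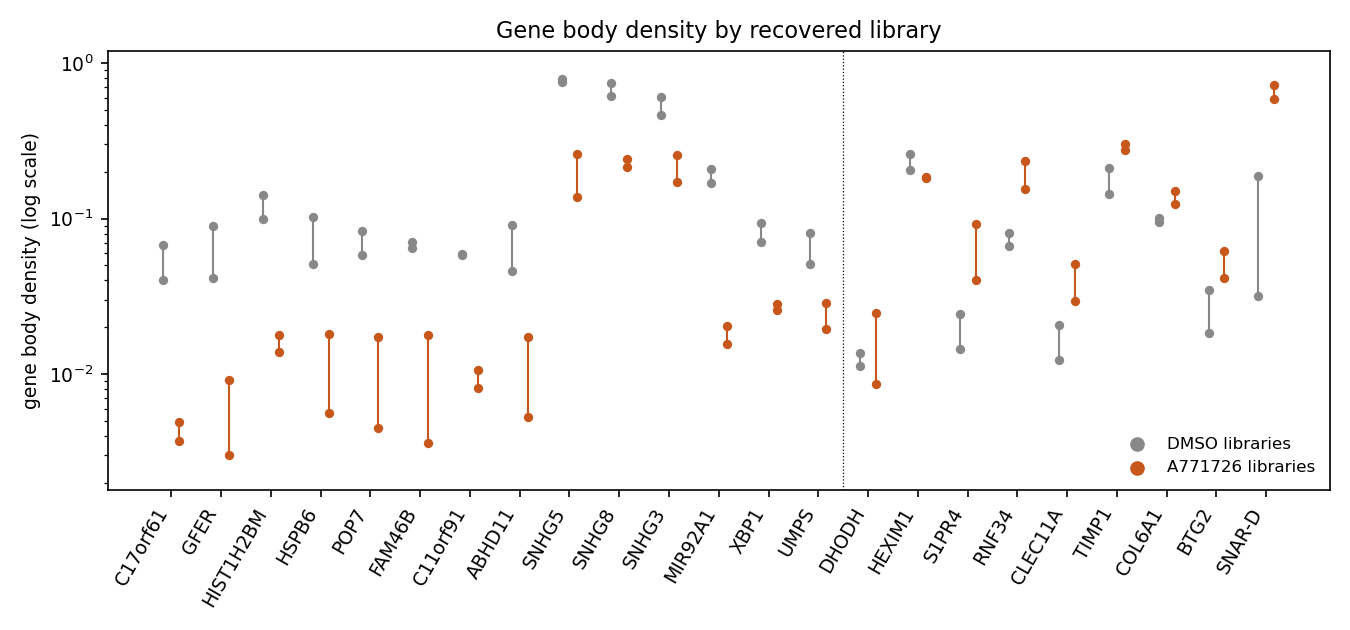
Gene body density of named genes in each recovered library, on a log axis, with the DMSO and A771726 libraries as separate points at the deposited scale. In MIR92A1, HIST1H2BM and SNHG5 both treated libraries sit below both controls, in TIMP1 and SNAR-D above them, and in DHODH the groups overlap. Apart from DHODH, the genes named here were picked for their large differences.

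Among protein-coding genes of at least median density, the lowest gene bodies besides the histones were of varied kinds. C17orf61 (NM_152766, now TMEM256) was at 0.0681 and 0.0404 in DMSO and at 0.0037 and 0.0049 in A771726, 6.06-fold lower relative to the median gene. GFER, a sulfhydryl oxidase of the mitochondrial intermembrane space, was at 0.0417 and 0.0891 in DMSO and at 0.0030 and 0.0092 in A771726, 5.69-fold lower. POP7, a subunit of RNase P and RNase MRP, was at 0.0579 and 0.0827 in DMSO and at 0.0174 and 0.0045 in A771726, a difference of -1.94. In these 3 genes every treated library was below every control. The same held for the small heat shock protein gene HSPB6, at -1.97, for FAM46B (now TENT5B), at -1.93, and for C11orf91 and ABHD11, both at -1.88. All the genes named in this paragraph reach the floor of median density, a mean over both groups of 0.0259, only through DMSO. All these genes were picked for their low values, so the separation of their libraries is no further support. RGS3, a regulator of G-protein signalling, differed by -2.07 and MAB21L1 by -1.94, both from deposited means alone. With the mean over all rows of a symbol RGS3 differed by only -0.77, and with a pseudocount 5 times larger C17orf61 differed by -1.71.

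The highest protein-coding gene bodies of at least median density were of varied kinds too. LGR6, a receptor for R-spondins that strengthens Wnt signalling, had deposited means of 0.0310 in DMSO and 0.106 in A771726, 4.68-fold higher relative to the median gene. TAT, tyrosine aminotransferase, had 0.0166 and 0.0574, 4.55-fold higher. S1PR4, a sphingosine 1-phosphate receptor, was at 0.0245 and 0.0145 in DMSO and at 0.0403 and 0.0918 in A771726, 4.51-fold higher. RNF34, a ubiquitin ligase, was at 0.0809 and 0.0671 in DMSO and at 0.234 and 0.156 in A771726, 3.71-fold higher. In S1PR4 and RNF34 both treated libraries were above both controls, also at the deposited scale. CLEC11A, a secreted growth factor, was at 0.0207 and 0.0123 in DMSO and at 0.0512 and 0.0296 in A771726, a difference of 1.71. TAT, S1PR4 and CLEC11A, and AGPAT4, ZNF358 and CDX1 below, reach the floor of median density, 0.0259, only through A771726. The genes of this paragraph were picked for their high values, so the separation of their libraries is no further support. AGPAT4 differed by 2.03, TMEM158 by 1.94, the transcription factor BCL11A by 1.87 and the interferon-induced IFITM2 by 1.73, and MEA1, ZNF358 and CDX1 by 1.67, 1.66 and 1.66.

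Among lists of metabolic and stress genes, sterol synthesis had a median of -0.45, with 12 of 15 genes below the median gene and 0 at least 2-fold lower. CYP51A1, which removes a methyl group from lanosterol, was at 0.0270 and 0.0222 in DMSO and at 0.0059 and 0.0123 in A771726, a difference of -0.73. SQLE, the epoxidase of squalene, was at 0.0220 and 0.0177 in DMSO and at 0.0054 and 0.0099 in A771726, a difference of -0.64. INSIG1, which retains the sterol sensor in the endoplasmic reticulum, went the other way at 0.31, and its libraries overlapped. For 5 of 14 sterol genes both treated libraries lay below both controls after the shift. Over the 10 recovered in all libraries the median was -0.47, and it was -0.26 without A771726 library 2 and -0.30 without DMSO library 1. The list of the unfolded protein response had a median of -0.41 with 8 of 13 genes below. XBP1, its spliced transcription factor, was at 0.0703 and 0.0931 in DMSO and at 0.0282 and 0.0259 in A771726, a difference of -1.0. HYOU1, a chaperone of the endoplasmic reticulum, was at 0.0501 and 0.0635 in DMSO and at 0.0220 and 0.0167 in A771726, a difference of -0.93. HSPA5, the chaperone BiP, differed by 0.01, and without DMSO library 2 the list's median over recovered genes was 0.03 in place of -0.33. In the ATF4 list, with a median of -0.08, the transcription factor gene DDIT3 was at 0.230 and 0.188 in DMSO and at 0.0914 and 0.0651 in A771726, a difference of -0.87. In the NRF2 list, with 9 of 12 genes below and a median of -0.31, the quinone reductase gene NQO1 was at 0.139 and 0.110 in DMSO and at 0.0361 and 0.0640 in A771726, a difference of -0.76. Over the 4 NRF2 targets recovered in all libraries the median was -0.11, and from -0.45 to 0.20 with 1 library left out.

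Of 18 genes of mitosis and the kinetochore, 12 lay below the median gene, with a median of -0.35, and for 7 of 15 both treated libraries lay below both controls after the shift. That median was -0.12 with the filter set at the 50th percentile, and -0.06 over the 11 genes recovered in all libraries. CENPA, the histone variant of centromeres, was at 0.0223 and 0.0332 in DMSO and at 0.0026 and 0.0083 in A771726, a difference of -1.45. CCNA2, which encodes cyclin A2, was at 0.0825 and 0.0582 in DMSO and at 0.0297 and 0.0074 in A771726, a difference of -1.29. In both genes the groups did not overlap, also after the shift, but both were picked for the size of their differences, which favours this. The 26 DNA replication genes split evenly, 13 above and 13 below, with a median of -0.01. RFC4, a subunit of the clamp loader, was at 0.136 and 0.123 in DMSO and at 0.0315 and 0.0520 in A771726, a difference of -1.06, whereas GINS4, a subunit of the replicative helicase, differed by 1.19. Among 18 targets of p53, 11 were above the median gene and 7 below, and their median was 0.14. Over the 9 recovered in all libraries it was 0.08, and from -0.11 to 0.22 with 1 library left out. BTG2, an antiproliferative gene, was at 0.0349 and 0.0184 in DMSO and at 0.0416 and 0.0619 in A771726, a difference of 1.42, and the apoptosis gene BAX was at 0.0606 and 0.0990 in DMSO and at 0.0999 and 0.101 in A771726, a difference of 0.84. The cyclin-dependent kinase inhibitor gene CDKN1A differed by 0.94 and MDM2 by 0.36.

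The lists that lay above the median gene held hypoxia, Wnt, matrix and lineage genes, and at the deposited scale the median of each of these 4 lists was below 0. For extracellular matrix and protease genes, 14 of 17 were above the median gene, and they had a relative median of 0.27 and a deposited one of -0.25. TIMP1, an inhibitor of matrix metalloproteases, was at 0.211 and 0.143 in DMSO and at 0.302 and 0.276 in A771726, 2.33-fold higher relative to the median gene. In limma's centred fit its log2 difference was 1.27 with an SE of 0.23, an unadjusted p of 0.0011 and an adjusted p of 0.544. COL6A1, a chain of type VI collagen, was at 0.0949 and 0.101 in DMSO and at 0.125 and 0.151 in A771726, a relative difference of 1.00. TIMP1 and COL6A1 were above both controls in both treated libraries as deposited, which their choice for large differences favours. Of 16 Wnt genes 12 were above the median gene, and they had a relative median of 0.35 and a deposited one of -0.17, and the receptor gene FZD2 was at 0.0081 and 0.0048 in DMSO and at 0.0111 and 0.0144 in A771726, a difference of 1.31. Of 9 hypoxia genes, 7 lay above, with a relative median of 0.49 and a deposited one of -0.03; the transcription factor gene BHLHE40 was at 0.0744 and 0.0258 in DMSO and at 0.0937 and 0.0532 in A771726, a relative difference of 1.05 with libraries that overlap as deposited. Of 9 melanocyte genes 7 lay above, with a relative median of 0.25 and a deposited one of -0.27. The master regulator MITF differed by 0.81, on low densities of 0.0123 in DMSO and 0.01555 in A771726, and SOX10 by 0.25. The melanocyte marker ERBB3 went the other way, at -0.42, with 0.145 in DMSO and 0.0746 in A771726. So did MLANA, which was under the filter, at -0.83. Over the 3 melanocyte genes recovered in all libraries the median was 0.06, and it was -0.13 without DMSO library 2 and -0.14 without A771726 library 1. Over the 8 recovered Wnt genes it was 0.32, and 0.14 without DMSO library 1, and over the 3 recovered hypoxia genes 0.69, and 0.37 without A771726 library 2. The activin subunit gene INHBA, in the list of neural crest and invasive genes, was at 0.147 and 0.143 in DMSO and at 0.191 and 0.182 in A771726, a difference of 0.88, and SNAI2, a transcription factor of that list, differed by -1.73. MAPK output genes had a median of 0.05, with 7 above and 7 below.

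**Figure D3:**
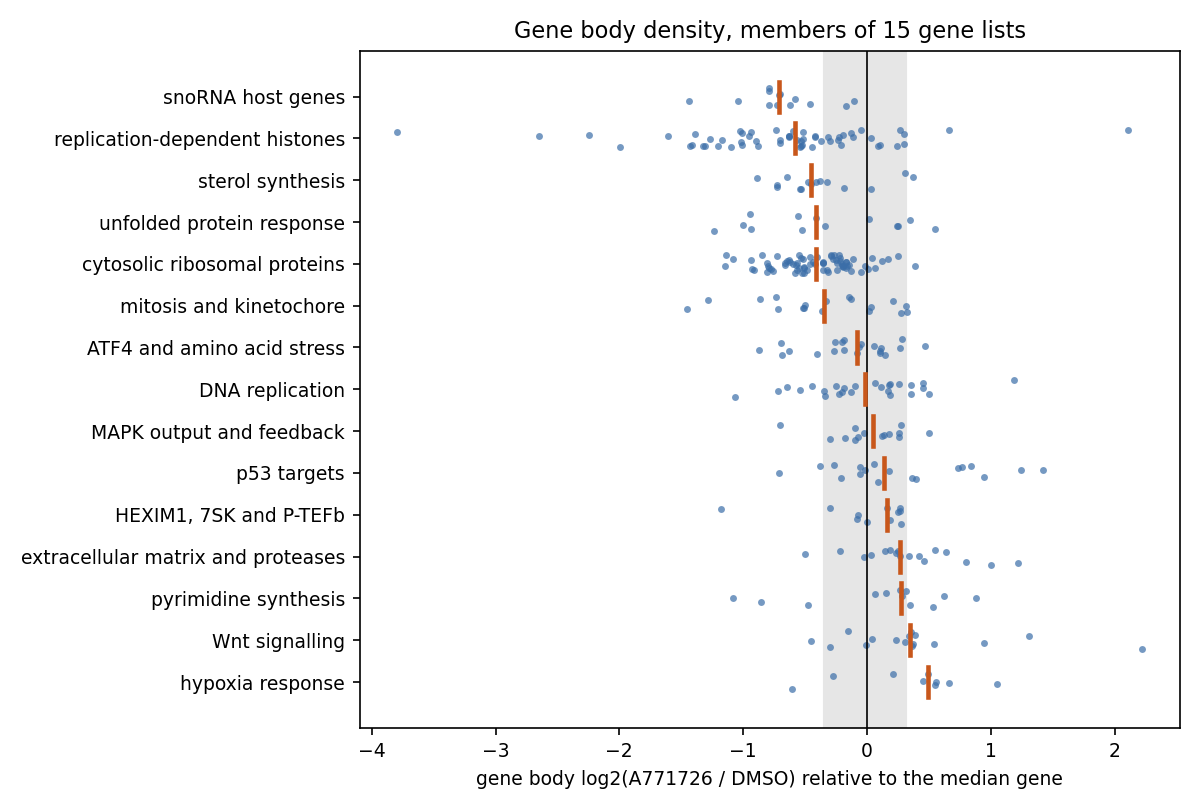
Log2 difference in gene body density between A771726 and DMSO relative to the median gene, with 1 point per gene in each of the lists shown; the orange bar is the list's median and the grey band the range between the quartiles of all genes, -0.35 to 0.32. The medians of the snoRNA hosts, histones and ribosomal proteins lie at -0.71, -0.58 and -0.41, below the band, and that of the hypoxia genes at 0.49 above it.

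Gene body differences also ran with the length of the gene. Spans in hg38, matched through RefSeq identifiers, were found for 94.6% of the genes past the filter. The genes were ordered by span and cut into 10 bins of equal number. In the bin of the shortest genes, with a median span of 0.109 kb, the median relative difference was -0.23, and 20.4% of genes were lower and 6.19% higher by 2-fold or more. In the bin of the longest genes, with a median span of 116 kb, it was 0.14, with 0.121% and 1.46%. The medians of the bins from short to long were -0.23, -0.15, -0.07, -0.09, -0.05, -0.01, 0.01, 0.05, 0.09 and 0.14. With any 1 of the 4 libraries left out, the shortest bin stayed between -0.21 and -0.10 and the longest between 0.10 and 0.17 over the recovered genes. Short windows hold fewer reads, and the low lists are of short genes: the median span was 0.4995 kb in histones, 3.27 kb in snoRNA hosts and 4.50 kb in ribosomal protein genes, against 14 kb in all genes. The part of length in the values of these lists was not tested. With no filter on low values the median of the longest bin was 0.06.

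**Figure D4:**
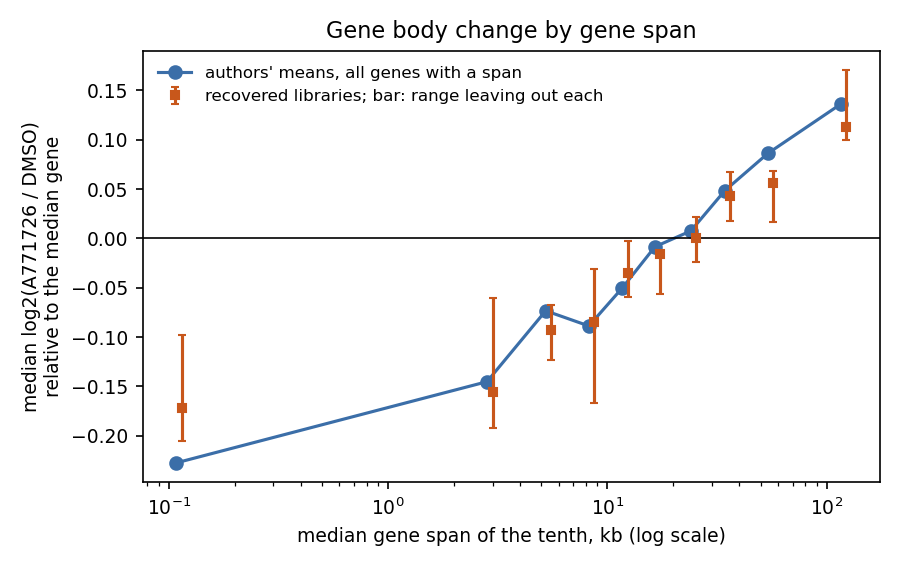
Median log2 difference in gene body density between A771726 and DMSO, relative to the median gene, in 10 bins of genes ordered by span from shortest to longest; orange bars give the range over fits that each leave out 1 library. The medians go from -0.23 in the shortest bin to 0.14 in the longest.

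Promoter densities differed between the groups in both directions. Over 8838 genes past the promoter filter the median log2 difference was 0.00, with 1842 genes (20.8%) higher and 2300 (26%) lower by 2-fold or more. The wide spread goes with the low read numbers. In all, 4348 genes were lower and 3986 higher in A771726, and the 1768 densest promoters had a median of -0.20. Another 502 (5.68%) were at 0 in both groups and passed the filter only through leflunomide. Both A771726 libraries lay above both DMSO libraries for 568 genes (10.1%) and below them for 871 (15.5%) of 5637. The library medians, 0.130 and 0.0520 in DMSO and 0.0962 and 0.0626 in A771726, overlapped (exact permutation p of 1). Their SD between libraries was 0.73 on the log2 scale, so a shift of the size seen in gene bodies was not detectable at promoters. APBB3, an adaptor of the amyloid precursor protein, had promoter densities of 0.438 and 0.538 in DMSO and of 0.0241 and 0.0313, 1 read in each library, in A771726, 11.2-fold lower. EIF4A1, the RNA helicase of translation initiation, was at 0.747 and 0.832 in DMSO and at 0.106 and 0.0626 in A771726, a log2 difference of -2.99, while its gene body differed by 0.15. HIST3H2A was at 0.340 and 0.520 in DMSO and at 0.0481 and 0 in A771726, a difference of -3.43. With a pseudocount 5 times larger these 3 differed by -2.33, -2.36 and -2.22. The other 5 of the 8 lowest were STX16 at -3.02, MRPS30 at -2.96, DPH2 at -2.51, TTC31 at -2.48 and SNF8 at -2.38. In all 8 both treated libraries lay below both controls. These promoters, and the highest ones, were taken among those whose mean over both groups was at least 0.224, a level that all 16 reach only through the group in which they are high. They were picked for the size of their differences, so the separation of their libraries is no further support.

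At the high end, B3GAT3, an enzyme that builds the linker of glycosaminoglycans, had promoter densities of 0.0875 and 0 in DMSO and of 0.337 and 0.657 in A771726, 8.42-fold higher. SPRY2, a feedback inhibitor of receptor tyrosine kinase signalling, was at 0.219 and 0 in DMSO and at 0.595 and 0.564 in A771726, a log2 difference of 2.24. The SPRY2 gene body went the other way, from 0.260 and 0.236 to 0.0856 and 0.125, a relative difference of -0.70. PHLDA2 was at 0.0875 and 0 in DMSO and at 0.603 and 0.288 in A771726, a difference of 2.92, and DCBLD2 at 0 and 0.225 and then at 0.939 and 0.820, a difference of 2.79. FOSB, a member of the AP-1 family, was at 0.263 and 0.104 in DMSO and at 0.770 and 0.657 in A771726, a difference of 1.86. The remaining 3 of the 8 highest were FXR2 at 2.05, CC2D1A at 2.03 and DEPDC7 at 1.86. In all 8 both treated libraries lay above both controls, which their choice as the highest favours. None of these 16 promoters passed limma's test. Of 7548 genes past both filters, relative to the median gene, 83 were higher in both by 2-fold or more and 139 lower in both, 63 were higher at the promoter and lower in the body, and 60 the reverse.

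**Figure D5:**
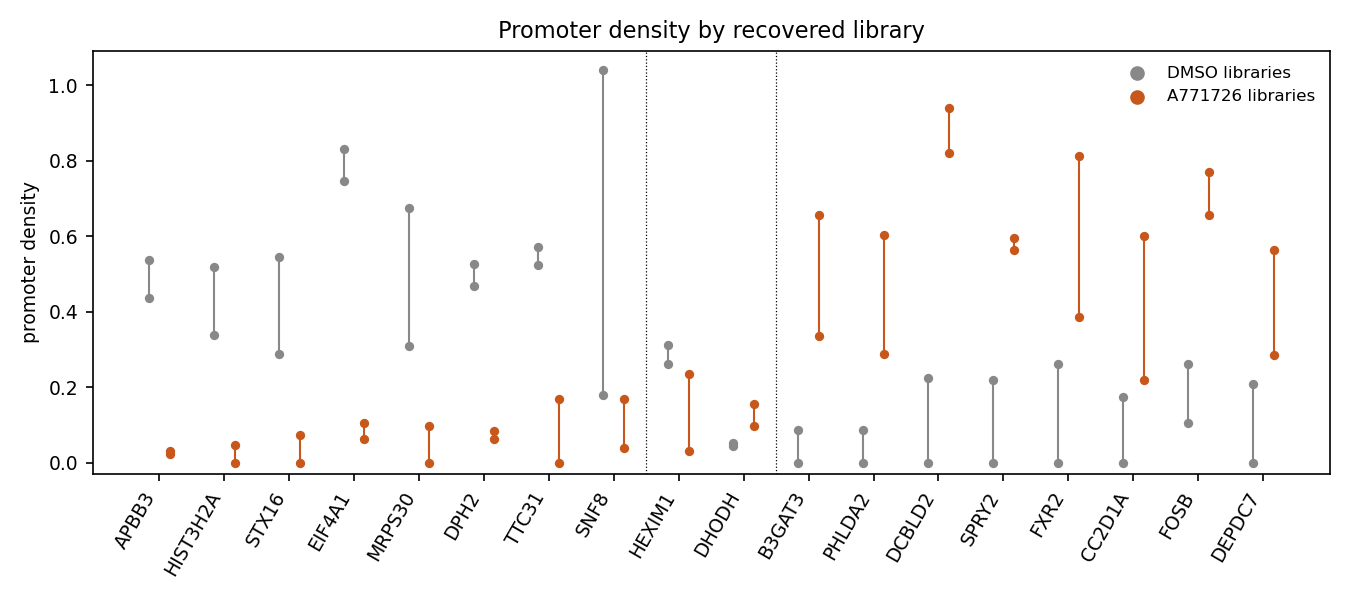
Promoter density of the 8 lowest and 8 highest protein-coding promoters whose mean over both groups was at least 0.224 in each recovered library, on a linear axis from 0, with the DMSO and A771726 libraries as separate points at the deposited scale. APBB3 and EIF4A1 are high in both controls and near 0 in both treated libraries, and SPRY2 and DCBLD2 show the reverse.

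The traveling ratio had a median log2 difference of 0.40 over the 5469 genes with a ratio in both groups, with 1886 (34.5%) higher and 955 (17.5%) lower by 2-fold or more. Relative to that median the counts were 1332 (24.4%) and 1329 (24.3%). The table itself is uneven here: no gene had a DMSO ratio above 7.5, whereas 14.7% of genes had an A771726 ratio above it. Among genes with a ratio of at most 7.5 in both groups the median difference was 0.06. The library medians were 3.26 and 2.82 in DMSO and 3.91 and 4.42 in A771726, which did not overlap (exact permutation p of 0.333, the smallest possible). Both A771726 libraries lay above both DMSO libraries for 1013 of 5303 genes (19.1%) and below them for 462 (8.71%). With limma, 0 of 1346 genes passed and 72 (5.35%) had an unadjusted p under 0.05, or 100 (7.43%) as deposited. Relative to the median ratio, B3GAT3 had the highest difference among genes with a promoter above that floor, 4.46, from 0.761 to 22.1, with only 2 and 0 promoter reads in the DMSO libraries. C11orf91 went from 2.44 to 44.4, a difference of 3.78, with a lower body and a higher promoter, and SPRY2 from 0.421 to 5.73, a difference of 3.36. The lowest were APBB3, from 5.66 to 0.607 and a difference of -3.63, and EIF4A1, from 1.93 to 0.244 and a difference of -3.39. RNF34 went from 4.72 to 0.854, a difference of -2.87, with a lower promoter and a higher body. By list, mediator subunits had the highest relative median, 1.17, with 5 of 8 genes higher by 2-fold or more and 2 lower. The list of cyclins and inhibitors of G1 had 1.11 with 8 of 14 higher and 3 lower. DNA replication genes had 0.94 with 9 of 19 higher and 1 lower. Notch signalling genes had the lowest, -1.02, with 0 of 6 higher and 3 lower.

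Leflunomide, the parent drug, was measured against the same DMSO samples, so the 2 comparisons share their controls and their values are only set side by side. The median gene body log2 difference was -0.06 with leflunomide and -0.52 with A771726. Relative to it, snoRNA host genes had a median of -0.49 with leflunomide and -0.71 with A771726. Histone genes had -0.58 with either agent, and ribosomal protein genes -0.35 with leflunomide and -0.41 with A771726. Sterol synthesis genes had -0.12 with leflunomide and -0.45 with A771726, and pyrimidine synthesis genes 0.09 and 0.28. Wnt genes had 0.38 and 0.35, matrix genes 0.28 and 0.27 and hypoxia genes 0.38 and 0.49. By span, the shortest bin had -0.20 with leflunomide and -0.23 with A771726, and the longest 0.18 and 0.14. The difference between the agents was not tested here.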

How the data were processed

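GRO-seq densities of 6 A375 samples in 3 groups were analysed, grouped by the labels' treatment. Per the submitters' processing notes, Bowtie 0.12.9, bedtools and the build hg18 were used; how windows were drawn, reads scaled, strands handled and genes annotated is not stated in the sources used. The deposited values are, per the file headers, the authors' group means of signal (read density) over promoter and gene body, and their mean traveling ratio. The header spells the agent A771762 and was read as A771726. The authors' fold-change columns were not used.

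Each symbol was kept once, as the row with the highest mean gene body density over the 3 groups. Differences are log2(value + pseudocount), with pseudocounts of 0.0022 (body) and 0.01735 (promoter), which understates the change of low genes; traveling ratios had none. Genes under the 30th percentile of the mean over groups were left out, which kept 8706 gene bodies and 8838 promoters. Library values were solved from the authors' means, taking library densities to have 4 decimals. A unique pair was found for 97.9% of usable DMSO rows (of 13020) and 97.4% of A771726 rows (of 13355). With each row's own ratio changed very slightly, so that no true pair should fit, it was 0.591% and 0.996%. In simulated rows a pair was found for 98.7% and 98.4%, all of them right. The library of each value could be told for 85.6% of usable DMSO rows and 84.3% of usable A771726 rows. In these rows 88.8% and 89% of promoter values above 0 fell on whole multiples of 1 read. Libraries were told apart by such multiples, so that share is partly built in. Limma 3.58.1 (R 4.3.3) fitted log2 values with trend and robust options over all 6 libraries, with libraries centred on their medians and, alternatively, as deposited; it was tested on simulated data, where it called 2 of 3279 unchanged genes. Python 3.11.15, numpy 2.4.6, pandas 2.3.3 and scipy 1.17.1 did the rest. Two-sided exact permutation tests compared library medians.

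The genes and lists were chosen with earlier results of these data known. Named with values were DHODH and HEXIM1; the 12 highest and 12 lowest protein-coding gene bodies of at least median density; the 8 highest and lowest promoters and ratios at or above the 90th percentile of promoter density; the 6 highest and lowest non-coding genes; up to 4 genes of a list with the largest differences, and defining members; and genes called by limma. Named outside that rule, after their values were seen, were the other members of the miR-17-92 cluster with MIR17HG, and TYMS, INSIG1, MDM2 and SNHG12. Alternatives were other pseudocounts, filters, fold thresholds and scalings, protein-coding genes alone, the mean over a symbol's rows, a fit of both groups alone and leaving out each library. Sequences came from RefSeq tables on GRCh38.p14, since no hg18 genome was used here.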

Additional observations from a re-analysis of the deposited data

How the results depend on the processing

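Alternatives were run for DHODH, HEXIM1, the highest and lowest genes and those called by limma, not for other named members of lists. Of 610 such values, 609 kept the sign of the difference, and the exception was HEXIM1 at the deposited scale, -0.33. Most of these genes were chosen for large differences in these data, so a kept sign is no test of them. Among the list members left out, SOX10 turned from 0.25 to -0.27 at the deposited scale. Of 142 values of lists and span bins, 133 kept the sign. The counts of gene bodies at least 2-fold higher and lower, 313 and 499, became 123 and 259 with a pseudocount 5 times larger and 73 and 1610 as deposited. With no filter 751 were lower, and with a filter at the 50th percentile 300. At a 1.5-fold threshold 1028 were higher and 1258 lower. The promoter counts, 1842 and 2300, became 454 and 593 with a pseudocount 5 times larger, and 1371 promoters were lower with the filter at the 50th percentile. With 1 library left out, where an arm of 1 is assumed to vary like the other groups, limma called 0 to 76 gene bodies as deposited: 76 lower without A771726 library 1 and 1 without DMSO library 1, and 0 when centred. It called 2 to 13 promoters centred, 13 without DMSO library 1 and 5 without A771726 library 1, and 2 to 18 as deposited, 18 and 6 without the same libraries. It called 0 to 4 ratios centred, 4 without DMSO library 1 and 2 without A771726 library 1, and 0 to 15 as deposited, 7 and 15 without the same libraries and 1 without A771726 library 2. Library 1 is the library of a group in which 1 promoter read is worth less. A fit of both groups alone called 2 ratios. No paired analysis was possible because the columns carry no replicate letters. The limits lie in the depth, with 1 to 3 promoter reads in the median gene, and in 2 libraries a group, where the exact test cannot go below 0.333.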
